A study of Mus musculus with 60 samples.

Results

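CL6G36 is a subline of P19CL6, which is itself a subclone of the mouse embryonal carcinoma line P19, and it was set against P19CL6 in undifferentiated culture. Its arrays were found by their titles, which name the strain and the replicate. This gave 5 replicates of CL6G36 and 5 of P19CL6, each measured on the array types MOE430A and MOE430B, which makes 20 of the 60 arrays in the study. The other arrays belong to P19 and to the further P19CL6 sublines CL6G45, CL6G26 and CL6G52, with 5 replicates each. All strains carry the same description in the labels: embryonal carcinoma cells from a male C3H embryo, grown in alpha minimum essential medium with fetal calf serum and collected undifferentiated, with no treatment named. Total RNA was labelled through 2 amplification cycles. The labels do not say what the sublines were derived for, and each strain is a single line. They also do not say whether the replicates were separate cultures, so each p-value rests on the spread among these samples, which may in part be technical.

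Embryonal carcinoma cells are the stem cells of teratocarcinomas and resemble the pluripotent epiblast, and P19CL6 is known for forming beating cardiac muscle readily. Several of the genes that differed between CL6G36 and P19CL6 belong to stress pathways. When misfolded proteins gather in the endoplasmic reticulum, the unfolded protein response acts through the sensors IRE1 (Ern1), PERK (Eif2ak3) and ATF6 to raise chaperones, degradation factors and secretory transport. PERK and other kinases that phosphorylate the translation factor eIF2 also raise the transcription factors ATF4 and CHOP (Ddit3), whose targets include amino acid synthesis enzymes, amino acid transporters and aminoacyl-tRNA synthetases. A further set of genes belongs to the primitive streak, the site in the early embryo where Nodal, Wnt and FGF signals turn epiblast cells towards mesoderm and endoderm.

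Levels are given as log2 of the array signal after quantile normalisation within an array type, so a difference of 1 is a 2-fold change. A signal was counted as above the floor at 4.61 on MOE430A or 4.15 on MOE430B, and 13181 genes were tested. Median array signals before normalisation ran from 30.2 to 43.7 in CL6G36 and from 30.4 to 48.3 in P19CL6 on MOE430A, and from 11.4 to 14.1 in CL6G36 and from 10.8 to 14.1 in P19CL6 on MOE430B. The 3' to 5' ratio of Gapdh, a sign of RNA integrity, overlapped between the strains on MOE430A, at 0.820 to 0.927 in CL6G36 and 0.835 to 0.887 in P19CL6. On MOE430B it was 0.801 to 0.864 in CL6G36 and 0.829 to 0.878 in P19CL6. There, CL6G36 replicates 1, 2, 4 and 5 lay under every P19CL6 array. The same ratio of Actb on MOE430B was 1.28 to 1.30 in CL6G36 and 1.24 to 1.29 in P19CL6. Some arrays stood apart from others of their own strain. On the first principal component of MOE430A, which held 19.3% of the variance, the CL6G36 arrays lay at 22.9 to 24.9. P19CL6 replicates 1 and 2 lay at -3.84 and -1.73, nearer to CL6G36 than replicates 3 to 5 at -13.9 to -11.6. Values without those 2 replicates are given for some results. Leaving out the P19CL6 arrays nearest to CL6G36 can by itself enlarge a difference, so these values are not independent support. CL6G52 replicate 1 lay at 22.4, among the CL6G45 arrays at 19.4 to 22.5, while CL6G52 replicates 2 to 5 lay at -5.11 to -3.35. P19 entered the fit for the spread and was not compared, and its replicates 1 to 3 lay at -50.3 to -45.7 while replicates 4 and 5 lay at -13.7 and -12.2, among P19CL6 replicates 3 to 5. The 9 markers listed for undifferentiated embryonal carcinoma cells were above the floor on each of the 10 arrays of the type that reads them. Of the markers of other cell types, 3 of 8 for primitive and visceral endoderm, 1 of 4 for trophectoderm, 3 of 6 for neural cells, 3 of 6 for fibroblasts and 1 of 3 for blood reached the testing filter, and 0 of these passed the test (limma), with 0 higher and 2 lower at an unadjusted p under 0.05.

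Against P19CL6, CL6G36 had higher levels of endoplasmic reticulum chaperones, of targets of ATF4 and CHOP and of genes that make, carry and charge amino acids. It had lower levels of primitive streak, Wnt and FGF genes. Direct tests of these lists against the other sublines are given below. Derl3, of protein degradation, rose by 2.53 and the stress factor Ddit3 by 3.27 on the log2 scale, while Fst, an activin inhibitor, changed by -2.99. In RNA of whole cultures, fewer cells of a kind and less RNA per cell cannot be told apart. Against P19CL6, CL6G36 differed in 192 genes, which is 1.46% of those tested, by limma, where a call needs a Benjamini-Hochberg adjusted p under 0.05 together with a 2-fold or larger change. Of these, 69 were higher in CL6G36 (0.523%) and 123 lower (0.933%). By adjusted p alone 1786 genes passed (13.5%), 900 of them higher (6.83%) and 886 lower (6.72%), and the median change over all genes was -0.004. Without P19 in the fit 198 genes were called and 2050 passed by adjusted p alone. In 1626 genes (12.3%) no CL6G36 array overlapped any P19CL6 array, and 166 of these also met both limits of the test (1.26%). Below, a gene is said to rise or fall where its adjusted p was under 0.05. The numbers of list members that did so are to be read against the 6.83% and 6.72% of all genes.

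Derl3 had the largest increase of any gene that stayed above the floor in all 10 samples. It encodes a member of the derlin family, which passes misfolded proteins out of the endoplasmic reticulum for degradation. Its log2 signal was 8.19, 7.59, 8.37, 8.44 and 8.64 in CL6G36 and 5.80, 5.87, 5.65, 5.48 and 5.79 in P19CL6. All 5 CL6G36 arrays lay well above the P19CL6 arrays, a difference of 2.53 ± 0.26 (SE, limma, adjusted p = 2.75e-08). Mean Derl3 was 7.50 in CL6G45, 5.99 in CL6G26 and 5.52 in CL6G52. Creld2, a secreted protein of the same stress response, had 9.79, 9.55, 9.60, 9.68 and 9.86 in CL6G36 and 8.09, 8.24, 7.93, 8.02 and 7.94 in P19CL6, with no overlap and a rise of 1.65 ± 0.14 (adjusted p = 2.44e-10). Manf, a neurotrophic factor held in the endoplasmic reticulum, averaged 10.97 ± 0.15 in CL6G36 and 9.53 ± 0.15 in P19CL6 (SD, n = 5 each), a rise of 1.44 ± 0.12 (adjusted p = 1.36e-10).

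Promoter stretches are shown for 5 genes of endoplasmic reticulum folding and degradation that rose, because each holds the endoplasmic reticulum stress element (CCAAT, then any 9 bases, then CCACG) on 1 of its strands, and for Herpud1, which holds the second form (ATTGG, then any 1 base, then CCACG). Both strands were searched from 250 bases before to 50 bases after the start site in RefSeq gene models of GRCm38.p6. Capitals mark the element, read 5′ to 3′ along the gene's strand, so that a match on the other strand starts with CGTGG and ends with ATTGG.
Derl3 (chr10:75893222-75893280, plus strand): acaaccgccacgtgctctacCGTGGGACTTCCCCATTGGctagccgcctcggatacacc
Hspa5 (chr2:34772005-34772063, plus strand): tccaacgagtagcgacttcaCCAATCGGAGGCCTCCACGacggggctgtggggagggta
Creld2 (chr15:88819500-88819558, plus strand): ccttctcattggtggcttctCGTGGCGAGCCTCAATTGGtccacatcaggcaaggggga
Dnajc3 (chr14:118937807-118937865, plus strand): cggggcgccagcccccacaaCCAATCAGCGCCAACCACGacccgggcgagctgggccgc
Ero1b (chr13:12565662-12565720, plus strand): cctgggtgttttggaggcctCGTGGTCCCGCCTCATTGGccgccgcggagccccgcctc
Herpud1 (chr8:94386357-94386407, plus strand): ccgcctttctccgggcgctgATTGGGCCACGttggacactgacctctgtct
In the search, 37 of 27025 genes (0.137%) held the first form and 12 (0.0444%) the second. Of the 30 chaperone and folding genes tested, 26 were matched to a promoter and 8 held the first form. Of these 8, Hspa5, Hsp90b1, Calr, Pdia6, Dnajc3, Creld2 and Ero1b rose, and Canx differed by 0.03 (adjusted p = 0.848). Among 20 matched degradation genes, Derl3 and Syvn1 held it. Dnajb11 and Herpud1 held the second form. Neither form was in any of 26 matched translocation and transport, 10 unfolded protein response or 20 ATF4 and CHOP genes. The letters TGACGTGG, a further core searched in the same way, were in 193 of 27025 genes (0.714%). They were in 2 of 26 chaperone and folding, 2 of 20 degradation and 5 of 26 translocation and transport genes, and 4 of these last 5 rose. A match describes these letters and is not evidence of binding.

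Among endoplasmic reticulum chaperones and folding enzymes, 21 of 30 tested genes rose and 0 fell, with a median change of 0.57 against -0.004 over all genes. Hspa5, the main chaperone of this compartment, known as BiP, had 12.01, 12.15, 12.25, 12.33 and 12.34 in CL6G36 and 11.20, 11.57, 11.36, 11.09 and 11.11 in P19CL6. No array of CL6G36 overlapped P19CL6, and the rise was 0.95 ± 0.10 (adjusted p = 6.03e-08). Ero1b, an oxidase that restores the enzymes forming disulfide bonds, lay above the floor on all 5 CL6G36 arrays and on 1 of 5 P19CL6 arrays. It averaged 6.06 ± 0.19 in CL6G36 and 4.23 ± 0.51 in P19CL6, a rise of 1.83 ± 0.27 (adjusted p = 1.03e-05), or 1.44 with signals raised to the floor and 1.12 with the mean of its probe sets. Sdf2l1, a cofactor of the BiP cycle, rose by 1.30 ± 0.11, and Dnajc3, a cochaperone of BiP, by 1.24 ± 0.17. Pdia4, Dnajb11, Pdia6 and Hsp90b1, which are disulfide isomerases and chaperones, rose by 1.03, 0.97, 0.94 and 0.63 (the highest adjusted p of these was 2.53e-05). Dnajc3 and Pdia4 changed by 0.97 and 0.64 when the mean of a gene's probe sets was used, and both still passed by adjusted p. With the authors' deposited scaling 11 of the 30 rose, and without P19CL6 replicates 1 and 2, 21 did.

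Of 25 genes of endoplasmic reticulum associated degradation, 9 rose and 0 fell, with a median of 0.16. Herpud1, a membrane component of the degradation complex, had 8.97, 9.20, 8.86, 8.96 and 9.11 in CL6G36 and 7.89, 8.36, 6.40, 7.23 and 7.13 in P19CL6. The groups did not overlap, yet P19CL6 replicates 1 and 2 read higher than replicates 3 to 5. Herpud1 rose by 1.62 ± 0.35 (adjusted p = 0.00117), and by 2.10 without those 2 replicates. Syvn1, the ubiquitin ligase of the complex, and its partner Sel1l rose by 0.83 ± 0.10 and 0.71 ± 0.13. Selenos rose by 0.75 and Edem1, which delivers misfolded glycoproteins, by 0.63 (the highest adjusted p was 9.10e-04). Scaled as deposited, 5 of the 25 rose. Of 35 translocation and secretory transport genes, 13 rose and 1, the signal peptidase subunit Spcs1, fell, at -0.26 ± 0.08 (adjusted p = 0.0154). The count that fell lay between 0 and 2 over the alternatives, at 0 without CL6G36 replicate 3 and at 2 without CL6G36 replicate 1 or 2 or P19CL6 replicate 3. Sec24d, a cargo adaptor of the vesicles that leave the endoplasmic reticulum, rose by 0.97 ± 0.12 and Sec61a1, the channel of the translocon, by 0.61 ± 0.09. With the deposited scaling 2 of the 35 rose.

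**Figure D1:**
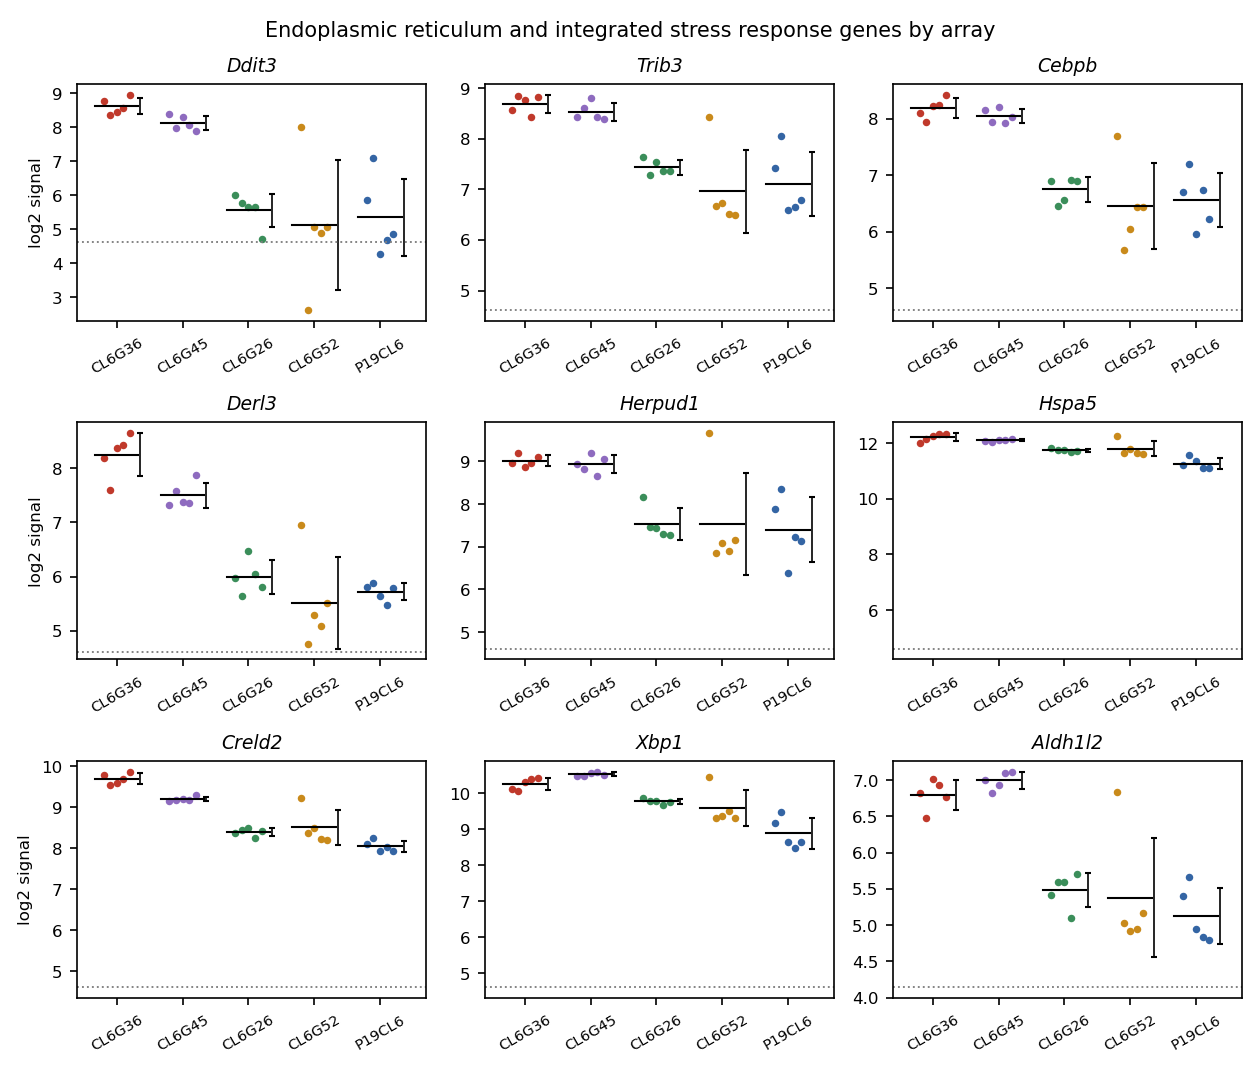
Log2 signal of 9 stress response genes on the MOE430A or MOE430B array that reads them (y axis), by strain (x axis, CL6G36 first and P19CL6 last). Points are the 5 arrays of a strain, the black line is their mean, the bar beside it is ± 1 SD and the dotted line is the floor. All CL6G36 arrays lie above all P19CL6 arrays in each panel.

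Among the sensors and transcription factors of the unfolded protein response, 6 of 12 tested genes rose and 0 fell, with a median of 0.42. Xbp1, whose messenger RNA is spliced by IRE1 to give the active factor, had 10.12, 10.07, 10.32, 10.39 and 10.44 in CL6G36 and 9.17, 9.48, 8.65, 8.48 and 8.66 in P19CL6. The groups did not overlap, and Xbp1 rose by 1.38 ± 0.16 (adjusted p = 2.70e-07), while the array does not separate the spliced form. Atf6 rose by 0.67 ± 0.13 and Creb3l1, a related membrane-bound factor, by 0.88 ± 0.14 (the higher adjusted p was 3.60e-04). The sensor genes Eif2ak3 and Ern1 differed by 0.35 (adjusted p = 0.0664) and -0.19 (adjusted p = 0.792) and did not pass. Creb3l4 passed narrowly, at 0.75 ± 0.27 (adjusted p = 0.0483), and missed the threshold in 12 of 22 alternatives. In the deposited scaling 3 of the 12 rose, and 4 did without P19CL6 replicates 1 and 2.

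Of 22 genes of the ATF4 and CHOP response, 13 rose and 0 fell, with a median of 0.57. Ddit3, the stress-induced transcription factor CHOP, had 8.77, 8.34, 8.45, 8.57 and 8.95 in CL6G36 and 5.85, 7.09, 4.27, 4.68 and 4.86 in P19CL6. The CL6G36 arrays lay close together, whereas P19CL6 replicates 1 and 2 read higher than replicates 3 to 5. Ddit3 rose by 3.27 ± 0.53 (adjusted p = 4.55e-05), and by 4.01 without those 2 replicates. With the 1 P19CL6 array that lay under the floor set to it, the rise was 3.20. Its mean in CL6G45 was 8.12, and CL6G26 and CL6G52 had 5.56 and 5.13. Trib3, a pseudokinase induced by CHOP and ATF4, had 8.57, 8.84, 8.77, 8.44 and 8.83 in CL6G36 and 7.43, 8.06, 6.58, 6.65 and 6.79 in P19CL6. It rose by 1.59 ± 0.27 (adjusted p = 6.10e-05), and by 2.02 without P19CL6 replicates 1 and 2, which again read highest of their strain. Cebpb, a partner of CHOP, had 8.09, 7.94, 8.23, 8.23 and 8.42 in CL6G36 and 6.70, 7.19, 5.96, 6.75 and 6.23 in P19CL6 and rose by 1.62 ± 0.23 (adjusted p = 5.36e-06).

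Atf4 itself rose by 0.48 ± 0.10 (adjusted p = 0.00113), at 11.02 ± 0.09 in CL6G36 and 10.53 ± 0.19 in P19CL6. Atf5, a related factor, rose and averaged 8.36 ± 0.26 in CL6G36 and 7.36 ± 0.24 in P19CL6 (adjusted p = 5.75e-05), and Ppp1r15a, the phosphatase subunit that reverses eIF2 phosphorylation, rose by 0.94 ± 0.17. Bbc3, a cell death gene known as Puma, rose by 0.84 ± 0.16 (adjusted p = 2.20e-04). Stc2, a secreted glycoprotein, rose by 1.08 ± 0.33 (adjusted p = 0.0188) and lost its call in 4 of 23 alternatives. Atf3 and Chac1, further targets, differed by 0.69 (adjusted p = 0.09) and 0.19 (adjusted p = 0.663). Without P19CL6 replicates 1 and 2 both passed, at 1.07 (adjusted p = 0.0154) and 0.71 (adjusted p = 0.0296), and 15 of the 22 genes rose. Those 2 arrays lay nearest to CL6G36 of their strain on MOE430A, so leaving them out favours such rises. Scaled as deposited, 7 of the 22 rose.

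Genes of serine, one-carbon and non-essential amino acid synthesis rose in 14 of 19 cases and fell in 1, with a median of 0.44. Aldh1l2, a mitochondrial folate enzyme, had 6.83, 6.47, 7.01, 6.93 and 6.76 in CL6G36 and 5.41, 5.66, 4.95, 4.83 and 4.80 in P19CL6. Its arrays did not overlap, and it rose by 1.67 ± 0.24 (adjusted p = 3.30e-05). Pck2, the mitochondrial carboxykinase, rose by 1.08 ± 0.16, Shmt2, which moves a carbon from serine to folate, by 0.99 ± 0.14, and Aldh18a1, of proline synthesis, by 0.94 ± 0.14. Phgdh, Psat1 and Psph, the 3 enzymes of serine synthesis, rose by 0.40, 0.31 and 0.87, and Asns, asparagine synthetase, by 0.42 (the highest adjusted p was 0.0055). Psat1 did not pass with median centring (adjusted p = 0.0556) or with the deposited scaling (0.543). Glul, glutamine synthetase, fell by 0.62 on the log2 scale (adjusted p = 7.53e-04). With the mean of its probe sets Aldh18a1 rose by 0.48. Shmt2 differed by 0.45 (adjusted p = 0.183) when the mean of its probe sets was used and did not pass. With the deposited scaling 5 of the 19 rose.

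Of 15 amino acid transporters, 9 rose and 1 fell, with a median of 0.55. Slc7a11, the cystine importer, averaged 5.84 ± 0.35 in CL6G36 and 4.51 ± 0.41 in P19CL6 and was above the floor on 5 and 3 arrays. It rose by 1.33 ± 0.37 (adjusted p = 0.0108), or 1.12 with signals raised to the floor. Slc6a9, a glycine carrier, Slc1a4, a carrier of alanine, serine and cysteine, and Slc7a5, of large neutral amino acids, rose by 1.03 ± 0.18, 0.91 ± 0.15 and 0.71 ± 0.11. Slc7a7, which exports basic amino acids, fell by 0.38 on the log2 scale (adjusted p = 0.0224). Slc7a7 did not pass in 6 of 23 alternatives. Of 19 aminoacyl-tRNA synthetases, which charge transfer RNAs, 13 rose and 0 fell, with a median of 0.39. Sars had 11.12, 11.05, 11.06, 10.99 and 11.15 in CL6G36 and 10.35, 10.30, 10.15, 10.15 and 10.23 in P19CL6, a rise of 0.84 ± 0.11 (adjusted p = 2.53e-06) with no overlap. Gars, Aars, Farsa and Lars rose by 0.62, 0.55, 0.52 and 0.50. In the deposited scaling 4 transporters and 1 synthetase rose.

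The amino acid response element TGATGNAA, to which ATF4 and C/EBP factors are known to bind, was searched in the same promoters on both strands. Excerpts of 3 genes that rose show it, with the matches in capitals, which end with CATCA where a match is on the other strand. Slc7a11 has a match on each strand.
Slc7a11 (chr3:50443652-50443699, minus strand): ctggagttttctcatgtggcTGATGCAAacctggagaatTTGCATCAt
Pck2 (chr14:55540143-55540190, plus strand): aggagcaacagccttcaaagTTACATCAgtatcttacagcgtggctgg
Aars (chr8:111033710-111033757, plus strand): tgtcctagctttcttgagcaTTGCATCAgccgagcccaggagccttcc
The element was in 1219 of 27025 genes (4.51%). It was in 5 of 12 matched synthetase genes, of which Aars, Gars, Tars and Yars rose and Iars did not pass, and in 3 of 17 matched amino acid synthesis genes, Asns, Got1 and Pck2, all of which rose. It was in 3 of 11 matched transporters, of which Slc7a11 and Slc1a4 rose and Slc7a7 fell, and in 5 of 20 matched genes of the ATF4 and CHOP list. Of those 5, Trib3 and Jdp2 rose and Atf3, Chac1 and Vldlr did not pass.

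The cytosolic and mitochondrial heat shock list moved in both directions, with 4 of 17 genes higher, 3 lower (5 with the mean of a gene's probe sets) and a median of 0.00. Hsph1, a cytosolic chaperone of the HSP110 family, fell by 0.96 (adjusted p = 1.55e-06) and Dnaja1, a cochaperone, by 0.62 on the log2 scale (adjusted p = 7.85e-06). Lonp1 and Hspa9, of the mitochondrial matrix, rose by 0.71 and 0.40 (adjusted p = 0.00935 and 4.58e-05). Lysosomal genes rose in 12 of 25 cases and fell in 1, with a median of 0.36. Ctsa, a protective carboxypeptidase, rose by 0.98 ± 0.11 (adjusted p = 1.90e-07), Mcoln1, a calcium channel, by 0.82 ± 0.12 and Atp6v0d1, a proton pump subunit, by 0.80 ± 0.08. Laptm4b, a lysosomal membrane protein, had 6.28, 5.74, 6.19, 6.33 and 5.80 in CL6G36 and 7.15, 7.08, 8.01, 7.96 and 7.90 in P19CL6 and fell by 1.55 on the log2 scale (adjusted p = 4.70e-06). Glycolysis genes rose in 11 of 20 cases and hypoxia-responsive genes in 6 of 14, with 0 lower in either list and medians of 0.23 and 0.43. Eno2, a neuronal enolase, rose by 1.07 ± 0.32 (adjusted p = 0.0182), P4ha2, a collagen prolyl hydroxylase, by 0.98 ± 0.21 and Egln3, which hydroxylates hypoxia-inducible factor, by 0.86 ± 0.12. Scaled as deposited, 0 heat shock, 6 lysosomal, 0 glycolysis and 2 hypoxia-responsive genes rose. The glycolysis count was 6 without P19CL6 replicates 1 and 2 or without CL6G36 replicate 3, and 7 without P19CL6 replicate 5.

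**Figure D2:**
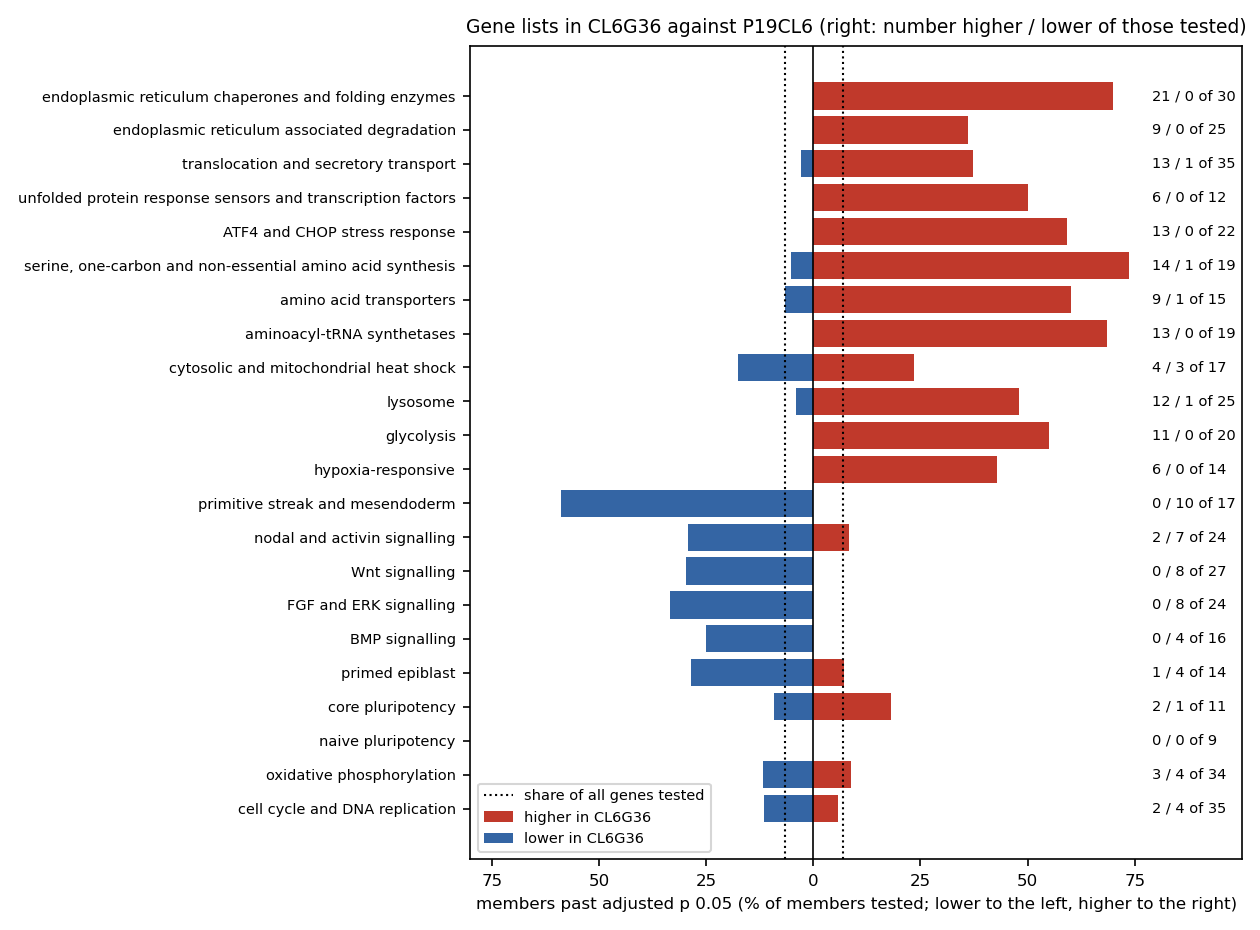
Share of tested list members (x axis, percent) that were higher in CL6G36 (red, to the right) or lower (blue, to the left) than in P19CL6 at adjusted p under 0.05 (limma), with the numbers at the right. Dotted lines mark the shares of all genes tested, 6.83% higher and 6.72% lower.

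The primitive streak and mesendoderm list moved the other way: 10 of 17 tested genes fell and 0 rose, with a median of -1.34. Mixl1, a homeobox gene of mesendoderm, had 3.86, 4.08, 4.60, 3.97 and 4.54 in CL6G36 and 6.41, 6.29, 7.33, 7.23 and 6.88 in P19CL6. It lay under the floor on all 5 CL6G36 arrays and above it on all P19CL6 arrays, and was at least 4.64-fold lower (adjusted p = 1.92e-10). Eomes, a T-box factor of the streak, had 7.70, 8.05, 7.77, 7.53 and 7.39 in CL6G36 and 8.82, 8.85, 9.16, 9.31 and 8.98 in P19CL6 and fell by 1.34 on the log2 scale (adjusted p = 7.21e-08). Foxa2, a factor of endoderm and the node, averaged 4.91 ± 0.33 in CL6G36 and 6.90 ± 0.24 in P19CL6, a change of -1.99 ± 0.18 (adjusted p = 2.35e-09). Nkx1-2, of the caudal epiblast, and Aplnr, the apelin receptor of early mesoderm, were at least 2.49-fold and 2.33-fold lower (adjusted p = 5.01e-09 and 1.20e-06). Their measured means were 3.77 ± 0.37 in CL6G36 and 5.93 ± 0.35 in P19CL6 and, for Aplnr, 2.24 ± 1.28 in CL6G36 and 5.84 ± 0.58 in P19CL6. The measured change of -2.16 in Nkx1-2 was -1.16 with the mean of its probe sets.

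Evx1, a homeobox gene of the posterior streak, changed by -1.99 ± 0.60 (adjusted p = 0.0188). It did not pass in the deposited scaling, at an adjusted p of 0.0514, or without P19CL6 replicate 3, at 0.0633. Cyp26a1, which breaks down retinoic acid, changed by -1.93 ± 0.38 (adjusted p = 4.76e-04), with 2 CL6G36 arrays above the floor. Apela, a peptide ligand of Aplnr, changed by -0.93 ± 0.21 (adjusted p = 0.0109), and by -0.82 (adjusted p = 0.0503) without P19CL6 replicate 4. With the deposited scaling its adjusted p was 0.0631. Cdx2 and Lhx1 lay under the floor on all CL6G36 arrays and above it on 3 P19CL6 arrays each. Their fitted changes of -3.32 and -3.08 shrank to -0.62 and -0.14 with signals raised to the floor, with adjusted p of 0.0138 and 0.292. With the deposited scaling 8 of the 17 fell.

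Fst encodes follistatin, a secreted inhibitor of activin, and had the largest decrease of any gene that stayed above the floor in all 10 samples. Its log2 signal was 7.33, 7.31, 7.02, 6.73 and 6.58 in CL6G36 and 9.70, 9.46, 10.23, 10.10 and 10.44 in P19CL6. Every CL6G36 array lay more than 2 below every P19CL6 array, and Fst changed by -2.99 ± 0.19 (adjusted p = 1.45e-12). CL6G45 and CL6G52 had means of 7.21 and 7.15, near that of CL6G36, while CL6G26 had 9.21. Of 24 tested genes of nodal and activin signalling, 7 fell and 2 rose, with a median of -0.04. Nodal, the ligand, had 9.12, 9.11, 9.38, 9.05 and 9.03 in CL6G36 and 9.99, 9.80, 10.15, 10.02 and 10.29 in P19CL6 and fell by 0.91 on the log2 scale (adjusted p = 1.27e-06). Its coreceptor Tdgf1, known as Cripto, changed by -0.37 ± 0.10 (adjusted p = 0.0125), and Foxh1, the transcriptional partner of its SMAD effectors, rose by 0.41 ± 0.09 (adjusted p = 9.89e-04). Cer1, a secreted nodal inhibitor, was under the floor on all CL6G36 arrays and above it on 3 P19CL6 arrays. It changed by -1.98 (adjusted p = 0.0291), or -0.20 with signals raised to the floor, and missed the threshold in 9 of 22 alternatives. In the deposited scaling 2 of the 24 fell, and without P19CL6 replicate 3, 4 did. The count that rose, with Foxh1 in it, lay between 0 and 3 over the alternatives.

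Of 27 tested Wnt signalling genes, 8 fell and 0 rose (1 or 2 in 9 of the alternatives), with a median of -0.35. Axin2, a feedback inhibitor and common target of the pathway, had 6.37, 6.36, 6.27, 6.02 and 6.80 in CL6G36 and 7.56, 7.65, 7.95, 7.76 and 7.99 in P19CL6, with no overlap and a fall of 1.42 on the log2 scale (adjusted p = 1.41e-07). Sp5, a zinc finger factor that Wnt signals induce, spanned 0.80 to 2.90 in CL6G36 and 5.28 to 7.07 in P19CL6. The bound was at least 3.29-fold lower in CL6G36, at an adjusted p of 1.36e-07, and P19CL6 replicates 1 and 2 read lowest of their strain. Among ligands, Wnt11 changed by -0.90 ± 0.14 (adjusted p = 1.54e-05) and Wnt8a by -1.69 ± 0.30 (adjusted p = 1.55e-04), or -1.20 with signals raised to the floor. Wnt5b was under the floor on all CL6G36 arrays and its change of -2.64 shrank to -0.49 with raised signals. Frzb, a secreted Wnt inhibitor, changed by -1.73 ± 0.34 and by -0.53 with raised signals. Ctnnb1, the effector beta-catenin, differed by 0.07 (adjusted p = 0.391). It passed in 1 of 23 alternatives, where its change reached at most 0.24 (lowest adjusted p = 9.73e-04).

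The letters ATCAAAG, a core to which TCF and LEF factors are known to bind, were searched in the same way. Promoters of 3 Wnt genes that fell show them in capitals, as CTTTGAT where the match is on the other strand.
Sp5 (chr2:70474799-70474845, plus strand): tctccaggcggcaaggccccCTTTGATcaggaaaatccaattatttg
Wnt5b (chr6:119449431-119449477, minus strand): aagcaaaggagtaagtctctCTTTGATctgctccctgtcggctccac
Wnt11 (chr7:98835041-98835087, plus strand): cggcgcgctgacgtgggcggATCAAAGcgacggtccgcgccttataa
The core was in 1160 of 27025 genes (4.29%), in 3 of 18 matched Wnt signalling genes (Sp5, Wnt5b and Wnt11) and in 4 of 15 matched streak genes. Of these 4, Foxa2 fell and Mesp1, Msgn1 and Greb1 did not pass. The core was in 0 of 15 matched FGF and ERK signalling genes.

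Of 24 genes of FGF and ERK signalling, 8 fell and 0 rose, with a median of -0.14. Fgf8, a growth factor of the streak, had 6.50, 6.37, 5.81, 5.72 and 5.97 in CL6G36 and 7.91, 7.79, 8.21, 8.25 and 8.10 in P19CL6, with no overlap and a change of -1.98 ± 0.18 (adjusted p = 1.41e-09). Etv4, a transcription factor that FGF signals induce, had 5.68, 5.60, 4.81, 5.51 and 5.39 in CL6G36 and 6.84, 6.88, 6.82, 6.72 and 6.61 in P19CL6 and changed by -1.37 ± 0.14 (adjusted p = 2.79e-08). Egr1, an immediate early gene downstream of ERK, changed by -1.67 ± 0.25, Dusp6, a phosphatase that switches ERK off, by -0.77 ± 0.11, and Fgf5, a ligand of the primed epiblast, by -0.82 ± 0.15 (the highest adjusted p was 2.67e-04). Fos lay under the floor on all CL6G36 arrays and above it on 1 P19CL6 array, so its fitted change of -1.34 became -0.03 with raised signals. Scaled as deposited, 5 of the 24 fell. Of 16 BMP signalling genes 4 fell and 0 rose. Smad1, a BMP effector, changed by -0.61 ± 0.09, and its targets Id3, Id1 and Msx1 by -0.72 ± 0.09, -1.03 ± 0.21 and -1.64 ± 0.35 (the highest adjusted p was 0.00122). Msx1 was above the floor on 3 of 5 CL6G36 arrays, and its change was -1.17 with signals raised to the floor and -0.98 with the mean of its probe sets. In the deposited scaling 3 of the 16 fell, and Smad1 did not pass (adjusted p = 0.0912).

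**Figure D3:**
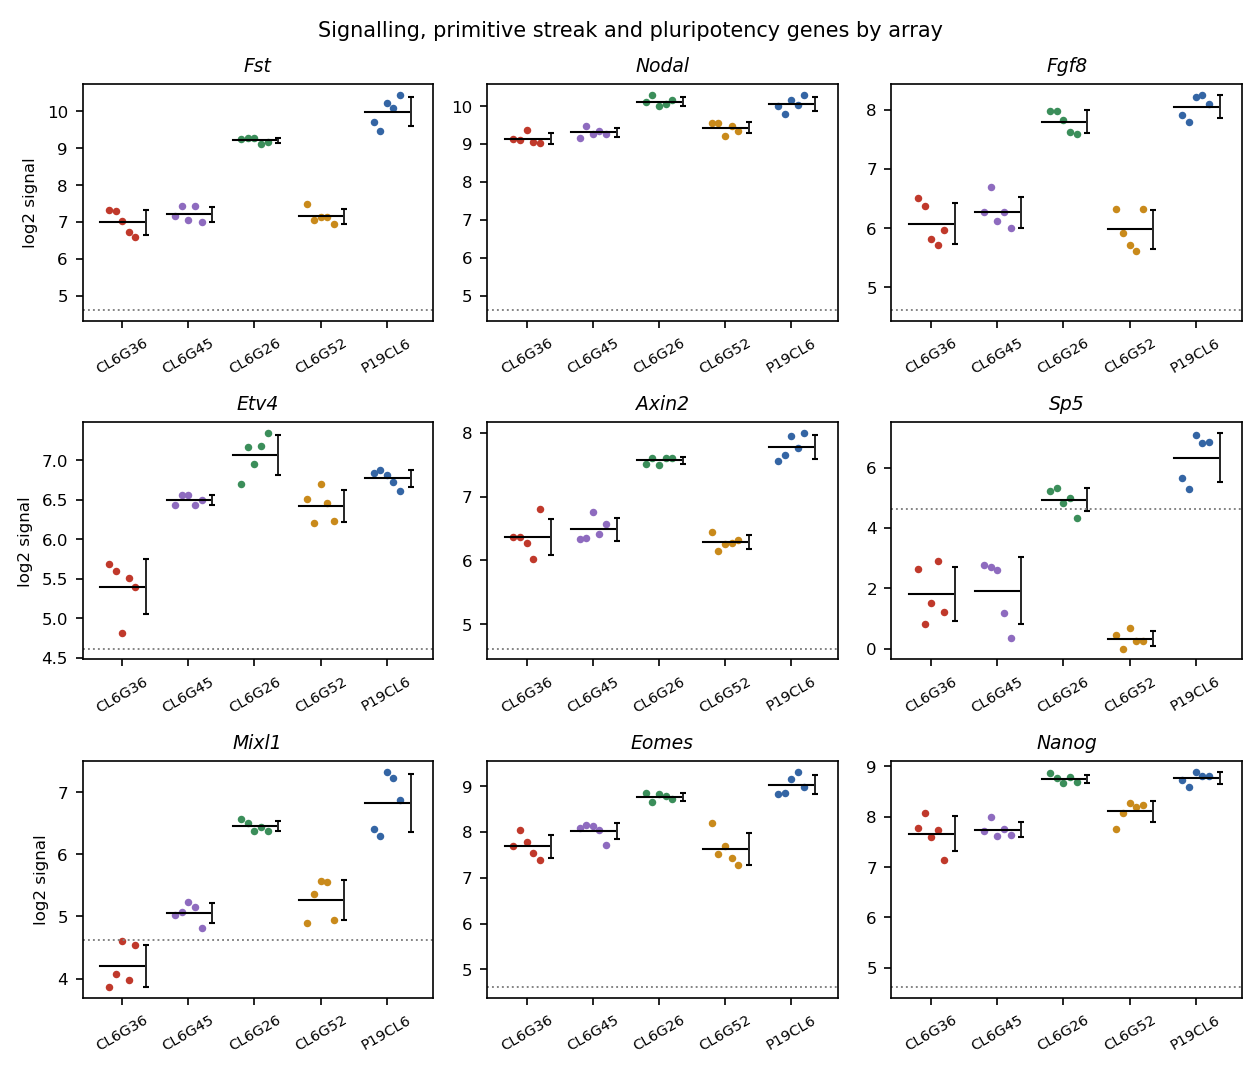
Log2 signal of 9 signalling, primitive streak and pluripotency genes (y axis) by strain (x axis, CL6G36 first and P19CL6 last). Points are the 5 arrays of a strain, the black line is their mean, the bar is ± 1 SD and the dotted line is the floor. In each panel the CL6G36 arrays lie under all P19CL6 arrays, and those of Mixl1 and Sp5 lie under the floor.

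Among core pluripotency genes 2 of 11 rose and 1 fell. The number that rose was 4 without CL6G36 replicate 2 and 1 with the deposited scaling, and 2 fell without CL6G36 replicate 3, 4 or 5. Nanog had 7.77, 8.08, 7.60, 7.73 and 7.14 in CL6G36 and 8.73, 8.59, 8.89, 8.80 and 8.81 in P19CL6, with no overlap and a fall of 1.10 on the log2 scale (adjusted p = 3.50e-08). Pou5f1 and Sox2, its partners, differed by 0.16 (adjusted p = 0.0669) and 0.34 (adjusted p = 0.0694) and did not pass. They passed as rises in 3 and 5 of 23 alternatives. One of these for Sox2 was without P19CL6 replicates 1 and 2, at 0.45 (adjusted p = 0.037). Utf1, a chromatin factor of pluripotent cells, and Foxd3, an epiblast factor, rose by 0.55 ± 0.10 and 0.74 ± 0.14 (adjusted p = 2.34e-04 and 2.46e-04), and Utf1 did not pass with the deposited scaling (adjusted p = 0.0527). Of 9 naive pluripotency genes tested, 0 passed in either direction (limma), with 0 higher and 2 lower at an unadjusted p under 0.05. One fell without CL6G36 replicate 5, and Klf4 and Zfp42 did not reach the filter. Of 14 genes of the primed epiblast, 4 fell and 1 rose, with a median of 0.03. Sall3, a zinc finger factor on this list, had 4.47, 4.15, 2.50, 3.14 and 3.04 in CL6G36 and 6.59, 6.91, 7.65, 7.80 and 7.91 in P19CL6 and was at least 6.76-fold lower (adjusted p = 2.39e-08). Dnmt3a, a de novo DNA methyltransferase, rose by 1.10 ± 0.18 (adjusted p = 3.72e-05).

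Beyond the stress and signalling lists, the largest increases (same condition on the floor) included those of H2-DMa, a chaperone of MHC class II molecules, Hip1r, an endocytic adaptor, Jcad, a protein of cell junctions, Sorcs2, a sorting receptor, Trap1a, a tumour rejection antigen, and Amdhd2, an enzyme of amino sugar breakdown. H2-DMa had 7.18, 7.29, 7.44, 6.91 and 7.01 in CL6G36 and 5.16, 5.09, 5.03, 5.12 and 5.18 in P19CL6, a rise of 2.05 ± 0.16 (adjusted p = 1.08e-10) with no overlap. Hip1r, Trap1a and Amdhd2 rose by 1.76 ± 0.29, 1.61 ± 0.29 and 1.59 ± 0.19 (the highest adjusted p was 1.61e-04). The largest decreases included those of Tmem98, a membrane protein, Pdf, the mitochondrial peptide deformylase, Amot, a scaffold of the Hippo pathway, Rab38, a small GTPase, Sgk1, a kinase, Tmem59l, a membrane glycoprotein, and Cotl1, which binds actin. Tmem98 had 6.59, 7.30, 6.69, 6.85 and 6.66 in CL6G36 and 9.36, 9.22, 9.23, 9.32 and 8.82 in P19CL6 and changed by -2.37 ± 0.21 (adjusted p = 1.63e-09). Pdf, Amot, Rab38, Sgk1 and Cotl1 changed by -2.14, -1.64, -1.60, -1.57 and -1.40 (the highest adjusted p was 0.00396). Amot and Cotl1 changed by -0.83 and -0.59 with the mean of their probe sets. The other 5 probe sets of Cotl1 differed by -0.52 to -0.02.

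Genes above the floor on every CL6G36 array and under it on every P19CL6 array included Gpr37, an orphan receptor, at least 4.03-fold higher (adjusted p = 9.96e-04) with means of 6.63 ± 0.19 in CL6G36 and 2.52 ± 1.27 in P19CL6. Trim66, a chromatin-linked protein, Chst1, a sulfotransferase, and Mfsd6, a transporter-like protein, were at least 2.74-fold, 1.49-fold and 1.47-fold higher. Their adjusted p were 4.44e-04, 0.00262 and 4.11e-04, and their means were 5.60 ± 0.14 in CL6G36 and 1.34 ± 1.40 in P19CL6, then 5.19 ± 0.24 in CL6G36 and 4.06 ± 0.75 in P19CL6, and 5.17 ± 0.19 in CL6G36 and 3.94 ± 0.38 in P19CL6. The call for Chst1 was lost in 3 of 23 alternatives. In the other direction Nenf, a secreted neurotrophic factor, had 1.97, 0.45, 0.96, 0.98 and 0.43 in CL6G36 and 5.11, 4.95, 5.48, 5.52 and 5.51 in P19CL6 and was at least 1.63-fold lower (adjusted p = 3.31e-09).

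Direct tests against the other sublines used the same CL6G36 arrays as the comparison with P19CL6. CL6G36 differed from CL6G45 in 67 genes (0.508%), 34 higher (0.258%) and 33 lower (0.25%), from CL6G26 in 195 (1.48%) and from CL6G52 in 169 (1.28%). The CL6G26 genes split into 105 higher (0.797%) and 90 lower (0.683%), and the CL6G52 genes into 107 higher (0.812%) and 62 lower (0.47%). By adjusted p alone the counts were 395 (3%), 1856 (14.1%) and 1732 (13.1%). Of the 69 genes higher than in P19CL6, 7 were also called higher than in CL6G45, 44 higher than in CL6G26 and 33 higher than in CL6G52. Of the 123 lower genes, 21, 65 and 38 were also called lower. Of the 30 chaperone and folding genes 3 were higher and 1 was lower in CL6G36 than in CL6G45 by adjusted p, against a background of 1.63% and 1.37%, while 18 were higher and 1 lower than in CL6G26 (background 7.67% and 6.41%) and 17 were higher and 0 lower than in CL6G52 (7.46% and 5.68%). Derl3 differed from CL6G45 by 0.75 (adjusted p = 0.111) and Ddit3 by 0.50 (adjusted p = 0.7), and neither passed. Of the degradation, ATF4 and CHOP, and amino acid transporter lists, 0 of 25, 0 of 22 and 0 of 15 genes were higher than in CL6G45 (limma), and 4, 2 and 0 were at an unadjusted p under 0.05. Other raised lists held genes higher than in CL6G45 by adjusted p: 6 of 25 lysosomal, 3 of 19 synthetase and 2 of 35 translocation genes. There was 1 each among 19 amino acid synthesis, 12 unfolded protein response and 20 glycolysis genes, and 0 among 14 hypoxia-responsive genes. In these lists 0 genes were lower than in CL6G45. With the authors' deposited scaling the called genes split into 16 higher and 41 lower against CL6G45, 72 and 129 against CL6G26, and 43 and 98 against CL6G52. Without CL6G52 replicate 1, CL6G36 differed from CL6G52 in 242 genes, 157 higher and 85 lower, and 18 chaperone and folding genes were higher and 1 lower. Of the genes called against P19CL6, 35 higher and 41 lower ones were then also called against CL6G52. Creld2 was higher than in CL6G45, by 0.50 (adjusted p = 0.0309). By adjusted p, 1 of 17 primitive streak genes was lower and 0 higher than in CL6G45. Against CL6G26 9 of them were lower and 0 higher, and against CL6G52 2 were lower and 1 higher. Of 27 Wnt genes, 0, 6 and 2 were lower than in CL6G45, CL6G26 and CL6G52, and 1, 2 and 1 higher. Of 24 FGF and ERK genes, 4, 9 and 4 were lower in the same order, and 2, 1 and 1 higher.

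Called in all 4 comparisons, each in the same direction, were 5 higher and 11 lower genes, or 5 and 10 without CL6G52 replicate 1. The 5 higher genes were H2-DMa, Jcad, Sorcs2, Gpr37 and Rps27. Mean H2-DMa was 7.17 ± 0.21 in CL6G36, 5.21 in CL6G45, 5.25 in CL6G26, 5.27 in CL6G52 and 5.12 ± 0.06 in P19CL6. Sorcs2 averaged 7.45 ± 0.17 in CL6G36 and 5.80 ± 0.23 in P19CL6, a rise of 1.65 ± 0.33 (adjusted p = 5.06e-04), and Jcad rose by 1.72 ± 0.18 (adjusted p = 1.21e-07). Rps27, a ribosomal protein gene with many near-identical copies, is uncertain for that reason. The 11 lower genes were Klhl22, Tmem98, Nenf, Tatdn3, Necab3, Cbr3, Prxl2b, Tmem59l, Etv4, Gsn and Vash2. Vash2 changed by -1.14 against P19CL6. It lost its call without P19CL6 replicates 1 and 2, at -0.99, and with a pseudocount of 16. Klhl22, a substrate adaptor of a ubiquitin ligase, had 4.68, 4.94, 4.97, 4.88 and 4.52 in CL6G36 and 6.99, 7.13, 6.89, 6.85 and 7.13 in P19CL6, a change of -2.20 ± 0.11 (adjusted p = 5.49e-15). Mean Tmem98 was 6.82 ± 0.28 in CL6G36, 9.25 in CL6G45, 9.20 in CL6G26, 9.54 in CL6G52 and 9.19 ± 0.21 in P19CL6.

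Cbr3, a carbonyl reductase, was at least 2.24-fold lower than in P19CL6 (adjusted p = 1.26e-05). Tmem59l averaged 5.48 ± 0.15 in CL6G36 and 6.99 ± 0.15 in P19CL6 (adjusted p = 1.21e-07). Tatdn3, a nuclease-like protein, changed by -1.89, or -1.01 with signals raised to the floor, and Prxl2b averaged 4.34 ± 0.49 in CL6G36 and 5.84 ± 0.27 in P19CL6 (adjusted p = 3.36e-06). Necab3 lay under the floor on all CL6G36 arrays and above it on 2 P19CL6 arrays, had a fitted change of -1.67 or -0.14 with signals raised to the floor, and lost its call in 6 of 22 alternatives. Among genes with no overlap and above the floor on all 10 arrays of CL6G36 and CL6G45, the largest called increases over CL6G45 were in Crabp2, a retinoic acid carrier, at 2.08, H2-DMa at 1.96, Sorcs2 at 1.94, Upp1, uridine phosphorylase, at 1.87, Jcad at 1.87 and Ppp1r1a, a phosphatase inhibitor, at 1.19. Under the same limits the largest decreases were in Tmem98 at -2.43, Tmem59l at -2.32, Pdf at -2.01, Arhgap32 at -1.66, Depdc5, a brake on amino acid signalling to mTORC1, at -1.65, and Dtx1, a Notch regulator, at -1.38. Against P19CL6, Arhgap32 and Depdc5 differed by 0.06 (adjusted p = 0.939) and -0.37 (adjusted p = 0.636).

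**Figure D4:**
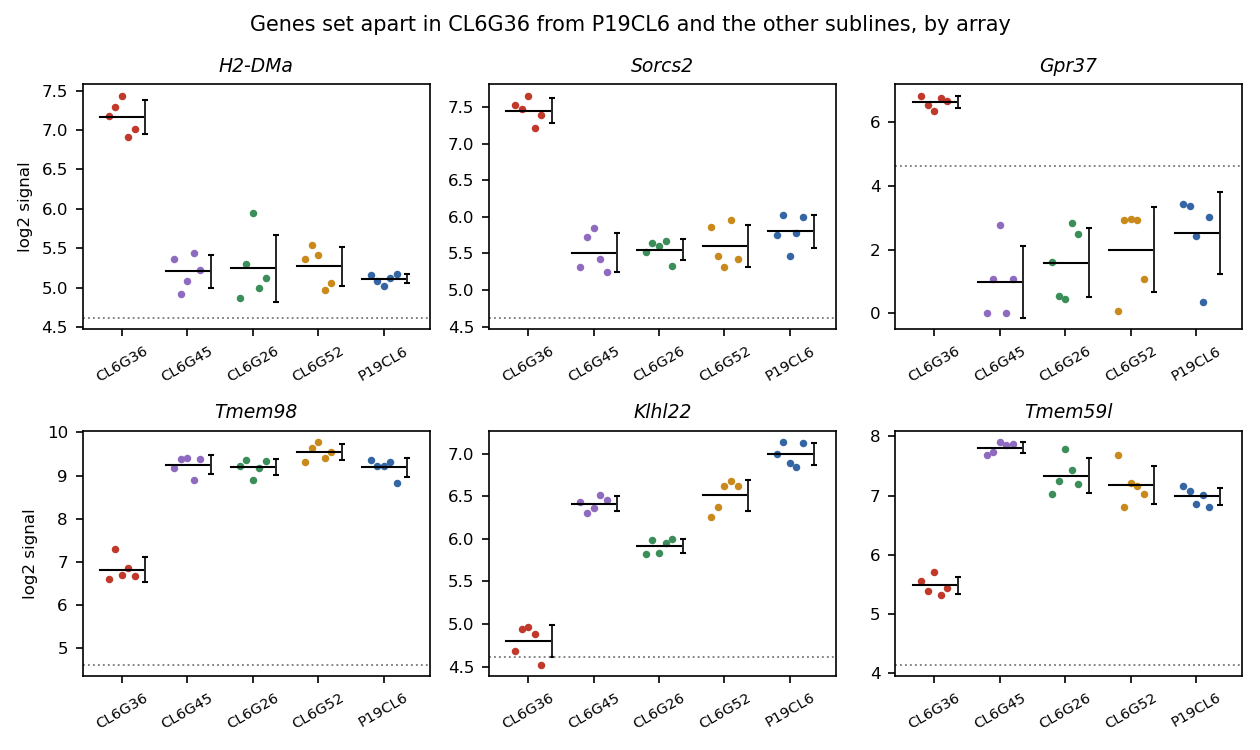
Log2 signal of 6 genes called in CL6G36 against each of the other 4 strains shown (y axis) by strain (x axis, CL6G36 first and P19CL6 last). Points are the 5 arrays of a strain, the black line is their mean, the bar is ± 1 SD and the dotted line is the floor. H2-DMa, Sorcs2 and Gpr37 were higher in CL6G36, and Tmem98, Klhl22 and Tmem59l lower.

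Nenf, Tatdn3 and Vash2 lie close together on chromosome 1 in the RefSeq gene order of GRCm38.p6. They are not adjacent: other tested genes, among them Batf3 and Atf3, lie between them. This was noticed after their values were seen, as was a second stretch on chromosome 3. Of the 12 tested genes from Cenpf to Nenf on chromosome 1, 8 fell in CL6G36 against P19CL6 and 0 rose, with a median of -0.66. The median was -0.65 against CL6G45, -0.64 against CL6G26 and -0.65 against CL6G52. Cenpf, a kinetochore protein, had 7.91, 8.03, 7.97, 7.85 and 7.91 in CL6G36 and 9.13, 9.25, 9.20, 9.18 and 9.22 in P19CL6, a change of -1.26 ± 0.07 (adjusted p = 2.28e-13) with no overlap. Smyd2 and Angel2 changed by -0.72 and -0.88, while Batf3 differed by 1.02 (adjusted p = 0.11) and Atf3 by 0.69 (adjusted p = 0.09). Batf3, under the floor on all CL6G45 and CL6G52 arrays, had a fitted difference of 3.24 from CL6G45 (adjusted p = 9.59e-06) and 1.89 from CL6G52 (adjusted p = 0.00304). Atf3 was higher than in CL6G52 by 1.24 (adjusted p = 0.00249).

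Of the 20 tested genes from Atp8b2 to S100a1 on chromosome 3, 17 rose against P19CL6 and 0 fell, with a median of 0.54. The median was 0.69 against CL6G45, 0.69 against CL6G26 and 0.87 against CL6G52. Hax1, which protects cells from death signals, had 11.53, 11.31, 11.37, 11.35 and 11.34 in CL6G36 and 10.33, 10.42, 10.11, 10.20 and 10.34 in P19CL6, a rise of 1.10 ± 0.09 (adjusted p = 1.35e-10) with no overlap. Ints3, a subunit of the Integrator complex, Jtb and Atp8b2, a phospholipid flippase, rose by 0.98 ± 0.09, 0.97 ± 0.11 and 1.09 ± 0.17. Rps27 and Creb3l4, named above, and Tpm3, named below, lie in this stretch. Over all 12924 runs of 9 neighbouring tested genes, medians against P19CL6 ran from -0.72 (chromosome 1 stretch) to 0.69 (chromosome 3 stretch). The limits that leave 1% of the runs on each side were -0.30 and 0.32. Both stretches were chosen from these same values, so their place at the ends of this range is not an independent test. Other runs beyond the limits included those around Derl3 on chromosome 10, at 0.66, and Snx18 on chromosome 13, at -0.57. Whether the DNA copy number of these stretches differs was not tested.

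**Figure D5:**
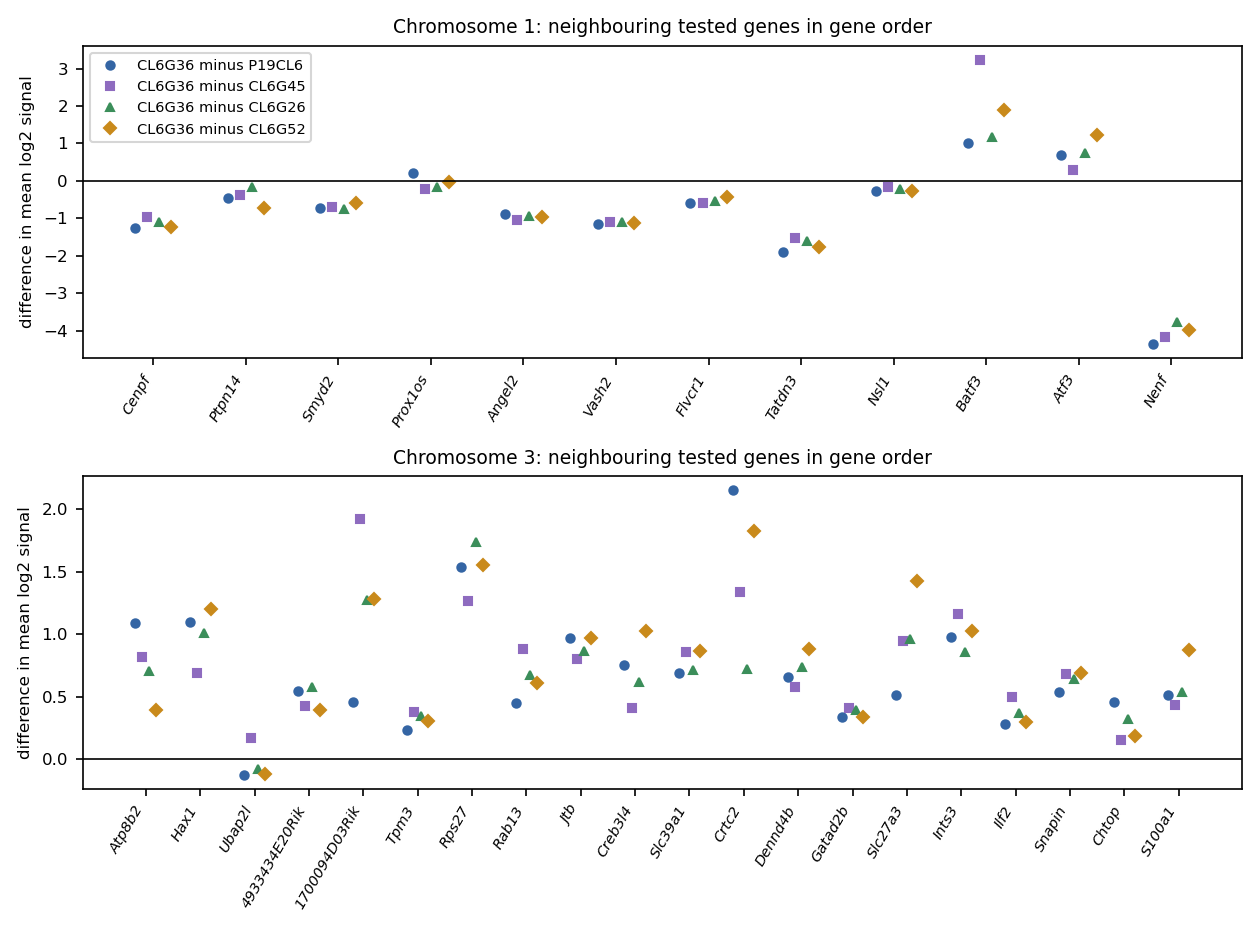
Difference in mean log2 signal (y axis) between CL6G36 and each of 4 strains (symbols) for tested genes in their order along stretches of chromosomes 1 and 3 (x axis). Most genes lie under 0 on chromosome 1 and above 0 on chromosome 3 in all 4 comparisons.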

How the data were processed

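RNA of 5 replicates per strain was measured on Affymetrix MOE430A and MOE430B arrays, and the authors deposited 1 signal intensity per probe set and array, made with GCOS per the submitters' processing notes; its version and settings are not given in the sources used here. Array number limits the precision. Here intensities were quantile normalised over the 30 arrays of a type in limma 3.58.1 (R 4.3.3), values under 1 were set to 1, log2 was taken, and probe sets were kept that lay above the floor on at least 5 arrays. The floor was set at the 40% point of signals on MOE430A and the 60% point on MOE430B. The brightest probe set stood for each gene, MOE430A first, with those whose name ends in x_at used where a gene had no other on that array. Strain means of all 6 strains were fitted with limma (lmFit, then eBayes with trend) and p-values adjusted by the Benjamini-Hochberg method over the tested probe sets of an array type (15068 on MOE430A and 12131 on MOE430B). The test was also tried on simulated data, and the outcome is not given here. Bounds ("at least N-fold") set the mean of the strain above the floor against the other strain's mean with its signals raised to the floor.

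Same-numbered replicates of CL6G36 and P19CL6 did not deviate together (correlations of -0.076 to 0.003 on MOE430A and -0.034 to 0.009 on MOE430B), so no pairing was used. Named genes were the 12 largest increases and decreases without overlap and above the floor, the 6 bounded genes with the smallest adjusted p in each direction, up to 6 members per list by size, genes called against all 4 strains, and the 6 largest called changes each way against CL6G45 without overlap and above the floor in both strains, with clone names left out throughout. Other list members, and the genes of the chromosome stretches, were chosen after their values were seen. The genes and lists were chosen with earlier results of these data known. Gene names came from the platform annotation and RefSeq. Alternatives covered scaling, pseudocount, filter, probe sets, samples in the fit and left-out replicates.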

Additional observations from a re-analysis of the deposited data

Results flagged for a closer look

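Among the genes named in the text, with 5 arrays per strain, 13 of 344 groups held 1 array far from the other 4 by Dixon's criterion, where chance gives about 1 in 20. P19CL6 replicate 2 read high for Hsp90b1 (9.93, others 9.66 to 9.73) and Dnajc3 (6.45, others 5.81 to 5.94) and low for Fgf5 (5.65, others 5.97 to 6.02). P19CL6 replicate 4 read low for Asns (10.61, others 10.86 to 10.96) and high for Rab38 (7.63, others 7.02 to 7.13). P19CL6 replicate 5 read low for Tmem98 (8.82, others 9.22 to 9.36), Chst1 (2.76, others 4.17 to 4.60) and Necab3 (1.90, others 4.32 to 5.19), with the stated arrays of Chst1 and Necab3 under the floor. CL6G36 replicate 1 read low for Atf5 (7.90, others 8.45 to 8.50) and Wnt5b (0.56, others 2.54 to 3.31, all under the floor) and high for Hax1 (11.53, others 11.31 to 11.37). CL6G36 replicate 3 read high for Nodal (9.38, others 9.03 to 9.12) and Tapbp (6.55, others 6.13 to 6.22). The direct tests between sublines, which ask whether CL6G36 differs from another subline as it does from P19CL6, gave 67 genes against CL6G45, 195 against CL6G26 and 169 against CL6G52.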

How the results depend on the processing

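The count of 192 genes against P19CL6 became 103 with a pseudocount of 16. The counts against CL6G45, CL6G26 and CL6G52 became 33, 95 and 57 with that pseudocount and 40, 126 and 90 with signals raised to the floor. Leaving out each replicate in turn gave 176 to 217 genes against P19CL6, 59 to 69 against CL6G45, 175 to 202 against CL6G26 and 134 to 242 against CL6G52, the last value without CL6G52 replicate 1. Without P19CL6 replicates 1 and 2, an alternative chosen with earlier results of these data known, the count against P19CL6 was 252, with 168 of the 192 genes among them. With the authors' deposited scaling it was 153, and 329 genes passed by adjusted p alone in place of 1786. By adjusted p alone, 78, 721 and 493 genes then passed against CL6G45, CL6G26 and CL6G52, in place of 395, 1856 and 1732. The called genes then split into 16 higher and 41 lower against CL6G45, 72 and 129 against CL6G26, and 43 and 98 against CL6G52, and the median of all genes moved to -0.12, -0.11 and -0.13. The cause of these changes was not tested. With the replicate number as a block, although the numbers did not pair the samples, the counts were 194, 68, 191 and 164. Of 234 named gene results, 222 passed against P19CL6. Of these 222, 94 no longer met their limits with the deposited scaling and 125 failed to meet them in at least 1 alternative. In the alternatives run, 0 of the 222 changed direction. Among those that did not pass, Ern1 ran from -0.25 to 0.52 and Canx from -0.01 to 0.19. Array number and weak signals limit precision.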

Other observations

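Imprinted genes, which are expressed from 1 parental copy, moved in both directions: 7 of 21 tested fell in CL6G36 against P19CL6 and 4 rose, with a median of 0.12. Peg3, a zinc finger gene of the paternal copy, had 8.47, 8.55, 8.80, 8.81 and 8.84 in CL6G36 and 9.74, 9.70, 10.31, 10.06 and 10.08 in P19CL6, a change of -1.28 ± 0.12 (limma, adjusted p = 2.48e-09) with no overlap. Phlda2, a placental growth regulator, and Sgce, a sarcoglycan, fell by 0.88 and 0.57 on the log2 scale, and Peg10 was at least 1.27-fold lower, a call lost in 10 of 23 alternatives. Grb10, a growth-restraining adaptor, rose by 0.99, or 0.95 with signals raised to the floor. With the deposited scaling 2 fell and 1 rose, and 2 rose without P19CL6 replicate 3.

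Of 12 interferon-induced genes, 5 fell and 1 rose. Ifitm1, a membrane protein that restricts viral entry, had 4.90, 4.82, 4.83, 4.35 and 3.48 in CL6G36 and 7.09, 7.30, 8.57, 8.47 and 8.84 in P19CL6, a change of -3.58 ± 0.28 (adjusted p = 1.18e-10), or -3.30 with signals raised to the floor. Irf1, an interferon-responsive factor, had a log2 change of -0.94 (adjusted p = 1.69e-06), and Ifitm3 was at least 1.76-fold lower. Bst2 rose by 0.45 (adjusted p = 0.0176) and lost that in the deposited scaling and without P19CL6 replicate 4. Of 15 genes of MHC and antigen processing, H2-DMa was alone in rising, while Tapbp, which loads class I molecules, changed by -1.17 (adjusted p = 3.23e-06) and Psmb10, an immunoproteasome subunit, by -0.79 (adjusted p = 1.99e-04).

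Of 15 actin and contractile genes, 6 fell and 1 rose. The riser was Tpm3, a tropomyosin whose gene lies in the chromosome 3 stretch described above, at 0.23 (adjusted p = 0.0352). It did not pass in 11 of 23 alternatives, among them those without CL6G36 replicate 1, 2 or 5 or P19CL6 replicate 1, 2 or 5. Tagln, a smooth muscle actin-binding protein, changed by -1.19 (adjusted p = 0.00183), Tpm4, also a tropomyosin, by -0.46 (adjusted p = 2.01e-04) and Actc1, cardiac actin, by -0.63 (adjusted p = 0.0116). With the deposited scaling 2 fell. Krt8 and Krt18, paired keratins of simple epithelia, fell by 0.84 and 0.84 (adjusted p = 4.06e-05 and 3.59e-04), and Fn1, the matrix protein fibronectin, by 1.09 (adjusted p = 1.19e-06). Of 10 cardiac transcription factors, Gata6 passed the test, with a fall of 0.69 (adjusted p = 0.00926), and it missed it with the deposited scaling. Of 10 retinoic acid pathway genes, 3 rose and 1 fell. The faller was Cyp26a1, named above, whose change of -1.93 was the largest of the list. Rara and Crabp2 rose by 0.62 and 0.87 (adjusted p = 0.00129 and 0.0222), and Crabp2 missed the threshold without P19CL6 replicate 1, 2 or both. Neither passed with the deposited scaling.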
